A study of Homo sapiens with 6 samples.

Results

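The genes described here are MAPK3, which encodes the kinase ERK1, and 8 genes for proteins that restrain ERK signalling: the phosphatases DUSP4, DUSP5 and DUSP6, the Sprouty proteins SPRY1, SPRY2 and SPRY4, and the Sprouty-related proteins SPRED1 and SPRED2. They were chosen by name, 9 of the 17588 genes whose name stood on a single row of the deposited tables. RNA sequencing gave their levels in HUVECs, primary human endothelial cells isolated from umbilical veins. They were transfected with 8OH-G miR-483 (3 libraries) or with miR-483 (3 libraries); 8OH-G names an oxidised guanine in this microRNA. Both groups received a lipid transfection reagent, and total RNA was taken on day 2. A scramble control is named in the protocol and was not analysed here, so a difference can come from either form of the microRNA. The labels give neither the arm of miR-483 nor the position of the oxidised guanine, and do not state that replicate libraries come from different cultures. The p-values therefore reflect variation among these 6 libraries alone, which may be technical.

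ERK kinases are the last kinases of the cascade that runs from growth factor receptors through Ras, Raf and MEK. In endothelium the cascade carries VEGF and FGF signals for proliferation, survival and sprouting. ERK signalling induces several of its own inhibitors: the DUSP enzymes remove the activating phosphates from ERK, whereas Sprouty and SPRED proteins act at the level of Ras and Raf.

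The 9 genes split into both directions. SPRY2, SPRY4, DUSP6 and SPRED1 were higher with 8OH-G miR-483, and DUSP4, MAPK3 and DUSP5 were lower. SPRED2 did not pass the test, and SPRY1 was too low to enter it. Levels are given as FPKM, fragments normalised to gene length and sequencing depth, so that they can be compared between genes. A gene was tested if it had at least 1 FPKM in at least 3 libraries, which 12216 genes did, among them 8 of the 9 described here. Differences are those of limma on log2(FPKM + 1), 8OH-G miR-483 minus miR-483, called at an adjusted p under 0.05 over all tested genes. Of the 8 genes, 4 were called higher and 3 lower, against 35.0% of all tested genes called higher and 20.4% called lower (55.4% in either direction). In the same 4 genes all 8OH-G miR-483 libraries lay above all miR-483 libraries, and in the same 3 genes all lay below, against 39.7% and 23.6% of all tested genes. Calls were thus common over all genes, and their number alone does not set these genes apart.

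Values of all genes leaned upwards. The median log2 difference over all tested genes was 0.10 as deposited, 0.01 after median-ratio scaling of the libraries and -0.01 after quantile normalization. The deposited totals were 1598260 to 1687283 FPKM per library with 8OH-G miR-483 and 1396537 to 1440422 with miR-483. Under both scalings, the calls for the 3 lower genes and for SPRY2, SPRY4 and DUSP6 held, and that for SPRED1 did not. That left 3 of the 8 called higher and 3 lower, against 28.2% and 26.4% of all genes under the first scaling and 27.0% and 28.0% under quantile normalization. When the test asked for a change of more than 1.2-fold, 2 were called higher (SPRY2 and SPRY4) and 3 lower, against 17.9% and 9.22% of all genes.

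**Figure D1:**
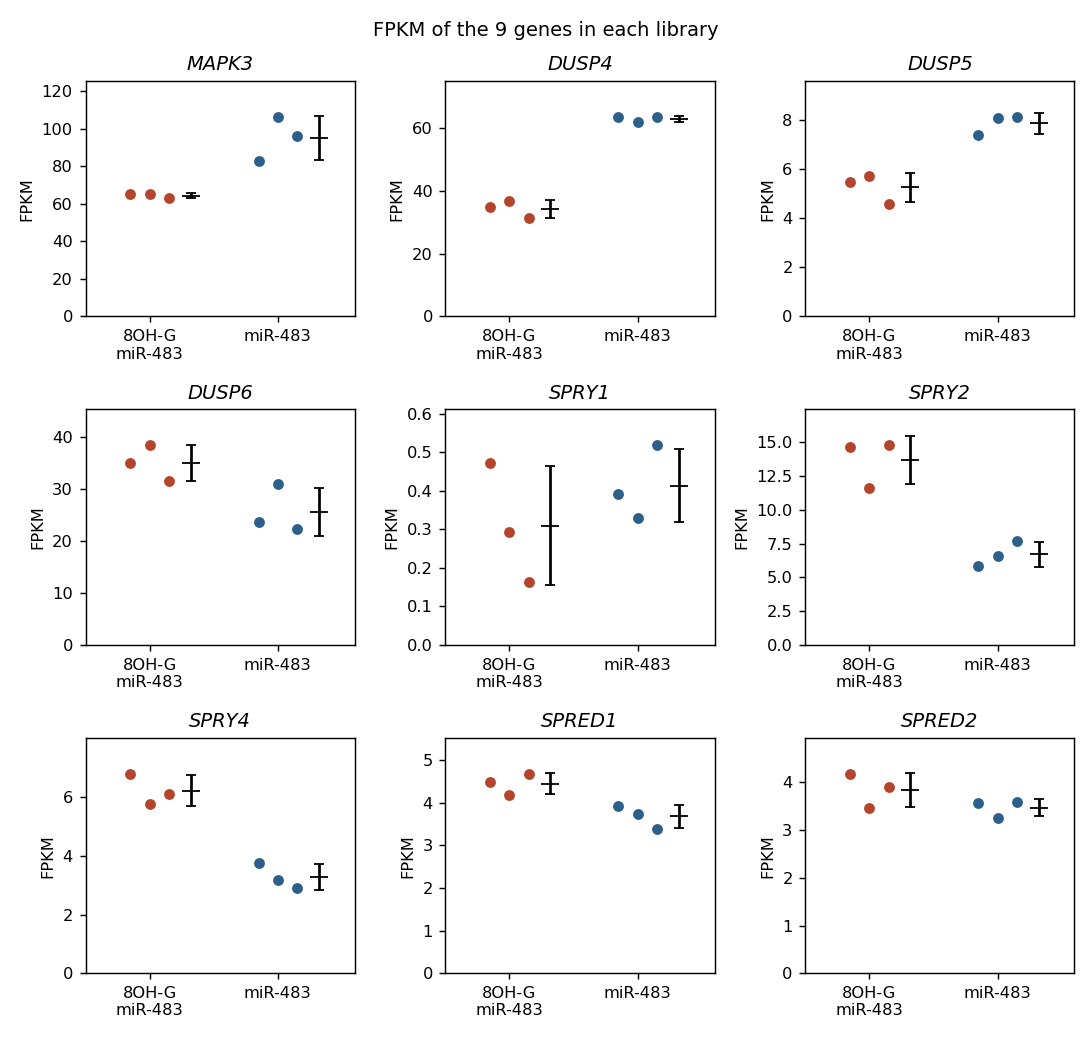
FPKM (vertical axes, from 0) of the 9 genes in each of the 3 libraries with 8OH-G miR-483 (red, left) and the 3 with miR-483 (blue, right), with the mean and SD as a black bar beside the points. SPRY2, SPRY4, DUSP6 and SPRED1 lay higher and MAPK3, DUSP4 and DUSP5 lower with 8OH-G miR-483, while the groups overlapped for SPRED2 and SPRY1.

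To show the DNA in front of genes that moved in opposite directions, the 250 bases upstream of the annotated start are given for MAPK3, which fell, and for DUSP6, SPRY2 and SPRY4, which rose. They are RefSeq sequences of GRCh38.p14, all on the minus strand and written 5′ to 3′ along the gene, at chr16:30123221-30123470 (MAPK3), chr12:89352502-89352751 (DUSP6), chr13:80341127-80341376 (SPRY2, the first of 3 starts listed) and chr5:142324248-142324497 (SPRY4). Capitals mark the GC box GGGCGG on either strand, the core motif of the Sp and related zinc finger factors.
MAPK3: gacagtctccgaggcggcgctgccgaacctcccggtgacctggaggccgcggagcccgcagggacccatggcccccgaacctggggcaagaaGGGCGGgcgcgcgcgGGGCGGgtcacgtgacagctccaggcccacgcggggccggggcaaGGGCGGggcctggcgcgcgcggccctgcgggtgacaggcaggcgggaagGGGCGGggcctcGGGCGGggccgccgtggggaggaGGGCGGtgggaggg
DUSP6: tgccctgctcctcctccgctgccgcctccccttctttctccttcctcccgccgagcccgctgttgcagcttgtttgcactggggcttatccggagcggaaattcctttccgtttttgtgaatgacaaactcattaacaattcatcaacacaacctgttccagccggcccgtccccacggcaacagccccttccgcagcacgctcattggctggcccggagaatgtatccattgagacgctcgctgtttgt
SPRY2: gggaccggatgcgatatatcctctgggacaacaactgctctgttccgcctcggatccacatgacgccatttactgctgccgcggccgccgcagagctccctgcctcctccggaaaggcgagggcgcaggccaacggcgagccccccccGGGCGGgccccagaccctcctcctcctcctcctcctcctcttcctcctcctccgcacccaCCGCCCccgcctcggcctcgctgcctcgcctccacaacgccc
SPRY4: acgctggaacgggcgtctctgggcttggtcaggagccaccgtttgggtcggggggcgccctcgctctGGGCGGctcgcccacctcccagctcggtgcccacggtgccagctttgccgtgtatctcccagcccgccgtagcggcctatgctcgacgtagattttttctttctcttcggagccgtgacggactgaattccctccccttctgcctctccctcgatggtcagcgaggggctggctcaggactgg
The MAPK3 window held 6 GC boxes and was 80.4% G or C. The SPRY2 window held 2, that of SPRY4 held 1 and that of DUSP6 held 0, with 70.4%, 65.6% and 57.2% G or C. Of 35116 upstream windows of the same length, 42.6% held at least 1 GC box. None of these 4 windows held the ETS motif CCGGAAG, the AP-1 motif TGACTCA or the cAMP response element TGACGTCA on either strand, which were found in 8.52%, 4.20% and 1.65% of all windows. The windows at the other SPRY2 starts held 0 GC boxes, and that of SPRED1, which also rose, held 1. No window was used for DUSP4 or DUSP5, which also fell, so these counts do not compare the directions. A match is a stretch of letters only, and factor binding was not measured.

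MAPK3 was the most abundant of the 9 genes in both groups, and fell with 8OH-G miR-483. Its level was 65.1, 65.2 and 62.9 FPKM in the 8OH-G miR-483 libraries, against 82.9, 106 and 96.1 FPKM in the miR-483 libraries. The 8OH-G miR-483 libraries lay close together and below every miR-483 library, which spread more widely. The means were 64.4 ± 1.30 FPKM with 8OH-G miR-483 and 95.1 ± 11.7 FPKM with miR-483 (SD, n = 3 libraries per group here and below), a mean 1.48-fold lower with 8OH-G miR-483. The log2 difference was -0.55 (SE 0.092, 95% interval -0.76 to -0.34, limma adjusted p = 0.00111). The mean of MAPK3 exceeded that of 91.8% of tested genes with 8OH-G miR-483 and of 94.9% with miR-483.

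The 3 ERK phosphatase genes did not move together. DUSP4, a nuclear enzyme that also acts on other MAP kinases, and DUSP5, a nuclear enzyme specific to ERK, fell, whereas DUSP6, the cytoplasmic enzyme specific to ERK, rose. DUSP4 was at 34.7, 36.6 and 31.2 FPKM with 8OH-G miR-483, against 63.4, 61.6 and 63.3 FPKM with miR-483. The gap between the groups was far wider than the spread within either. Its mean was 1.84-fold lower, the widest change downwards among the 9 genes, with a log2 difference of -0.86 (SE 0.073, limma adjusted p = 2.43e-05), lower than that of all but 3.83% of tested genes.

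DUSP5 was expressed at a lower level, with 5.47, 5.71 and 4.60 FPKM in 8OH-G miR-483 libraries and 7.38, 8.08 and 8.12 FPKM in miR-483 libraries. The groups were apart, and the log2 difference was -0.50 (SE 0.087, limma adjusted p = 0.00132), a 1.49-fold lower mean. DUSP6 was at 35.0, 38.4 and 31.6 FPKM with 8OH-G miR-483 and at 23.7, 30.9 and 22.3 FPKM with miR-483. Here the groups only just separated: the lowest 8OH-G miR-483 library, replicate 3, stood beside miR-483 replicate 2. Its mean was 1.36-fold higher, with a log2 difference of 0.44 (SE 0.125, 95% interval 0.16 to 0.73, limma adjusted p = 0.0155). The DUSP6 call was lost without miR-483 replicate 1 (adjusted p = 0.0507) or miR-483 replicate 3 (0.0565). DUSP6 shares exon bases with AC024909.2, on the opposite strand in GENCODE 29, and since strand use in counting is not given in the sources used here, reads of the pair cannot be told apart.

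The balance of DUSP4 and DUSP6 differed between the groups, and a single scaling factor per library cannot alter it. Every 8OH-G miR-483 library had more DUSP6 and less DUSP4 than any miR-483 library, so the ratio of these genes had to separate the groups. The ratio restates those differences and adds no support to them. Of the summed FPKM of DUSP4, DUSP5 and DUSP6, DUSP4 held 46.1%, 45.3% and 46.3% with 8OH-G miR-483, against 67.1%, 61.2% and 67.5% with miR-483. DUSP6 held 46.6%, 47.6% and 46.9% with 8OH-G miR-483, against 25.1%, 30.7% and 23.8% with miR-483. The shares were nearly constant over the 8OH-G miR-483 libraries, and neither gene's shares overlapped between the groups. The ratio of DUSP6 to DUSP4 was 1.02 ± 0.0224 with 8OH-G miR-483 and 0.409 ± 0.0808 with miR-483 (exact two-sided permutation p = 0.1, the smallest that 3 libraries against 3 can give, and 0.138 adjusted over the 11 sums, ratios and shares computed). The sum of the 3 genes was 74.4 ± 6.72 FPKM with 8OH-G miR-483 and 96.3 ± 3.81 FPKM with miR-483, but relative to MAPK3 it was 1.15 ± 0.0836 with 8OH-G miR-483 and 1.02 ± 0.103 with miR-483, with overlapping groups (exact permutation p = 0.2, 0.244 adjusted, n = 3 each).

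Among the Sprouty genes, SPRY2 and SPRY4 rose 2.04-fold and 1.90-fold. Both proteins are induced by growth factors and dampen the signal from their receptors to ERK, and SPRY4 is known to restrain sprouting of blood vessels. SPRY2 was at 14.6, 11.6 and 14.8 FPKM with 8OH-G miR-483, against 5.84, 6.61 and 7.67 FPKM with miR-483. All 8OH-G miR-483 libraries were well above all miR-483 libraries. The log2 difference was 0.93 (SE 0.116, 95% interval 0.66 to 1.19, limma adjusted p = 0.000206), above that of 93.5% of tested genes.

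SPRY4 was at 6.78, 5.75 and 6.10 FPKM with 8OH-G miR-483, against 3.75, 3.16 and 2.91 FPKM with miR-483. The groups were again well apart, with a log2 difference of 0.76 (SE 0.096, limma adjusted p = 0.000223). The ratio of SPRY2 to SPRY4 was 2.20 ± 0.201 with 8OH-G miR-483 and 2.10 ± 0.538 with miR-483, and the groups overlapped (exact permutation p = 0.9, n = 3 each). SPRY1, by contrast, was barely detected, at 0.471, 0.292 and 0.164 FPKM with 8OH-G miR-483 and 0.393, 0.330 and 0.518 FPKM with miR-483. Its groups overlapped, and in a fit without the filter on low values its log2 difference was -0.12 (SE 0.10, limma adjusted p = 0.395). The summed Sprouty level per unit of MAPK3 was 0.336, 0.271 and 0.335 with 8OH-G miR-483, against 0.120, 0.0950 and 0.115 with miR-483, a ratio of means of 2.85 with no overlap (exact permutation p = 0.1, 0.138 adjusted, n = 3 each). As the Sprouty sum was higher and MAPK3 lower in every 8OH-G miR-483 library, this ratio had to separate the groups. It restates those differences and adds no support to them.

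**Figure D2:**
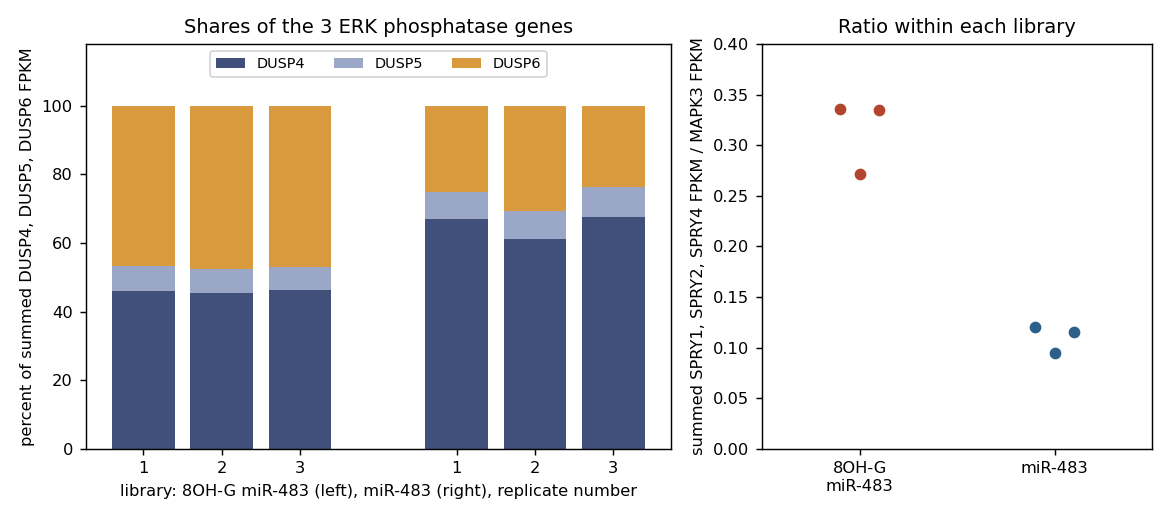
Left, the percent of the summed FPKM of DUSP4, DUSP5 and DUSP6 held by each gene in the 3 libraries with 8OH-G miR-483 and the 3 with miR-483; right, the ratio of summed Sprouty FPKM (SPRY1, SPRY2 and SPRY4) to MAPK3 FPKM, 1 point per library. DUSP4 and DUSP6 held nearly equal shares with 8OH-G miR-483, whereas DUSP4 held 61.2% to 67.5% with miR-483, and the Sprouty ratio was 0.271 to 0.336 with 8OH-G miR-483, against 0.0950 to 0.120 with miR-483.

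SPRED1 and SPRED2 had the smallest differences of the 8 tested. SPRED proteins bring the Ras inactivator neurofibromin to the plasma membrane. SPRED1 was at 4.48, 4.19 and 4.67 FPKM with 8OH-G miR-483, against 3.91, 3.74 and 3.38 FPKM with miR-483. The groups did not overlap, but the mean was only 1.21-fold higher, with a log2 difference of 0.22 (SE 0.078, limma adjusted p = 0.0407). Median-ratio scaling (adjusted p = 0.169) and quantile normalization (0.512) each ended the call, as did a fit without 8OH-G miR-483 replicate 1 or 3 or miR-483 replicate 2 or 3 (0.0722 to 0.153). SPRED2 was at 4.17, 3.46 and 3.89 FPKM with 8OH-G miR-483 and 3.55, 3.25 and 3.59 FPKM with miR-483, with overlapping groups and a log2 difference of 0.11 (95% interval -0.07 to 0.30, limma adjusted p = 0.267).

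**Figure D3:**
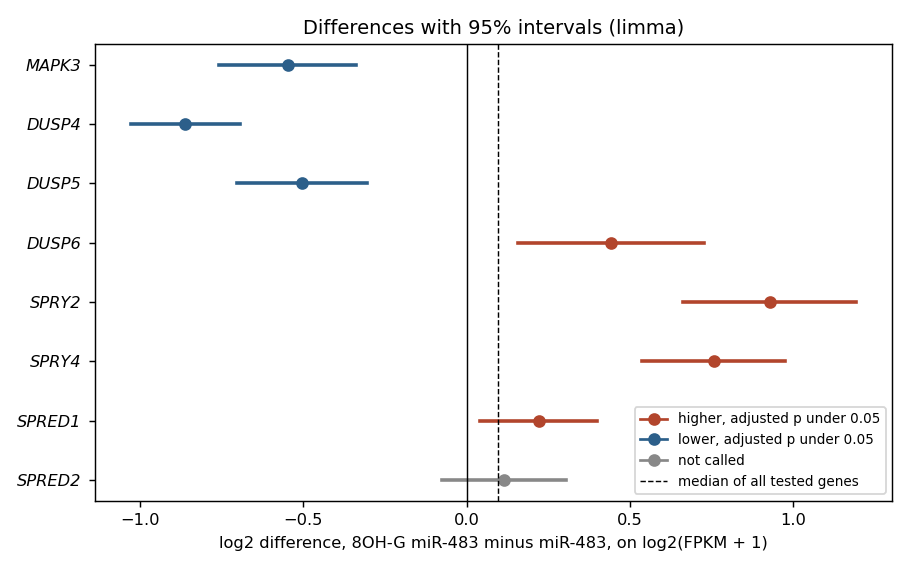
Log2 difference on the log2(FPKM + 1) scale (8OH-G miR-483 minus miR-483, point) and its 95% interval (line) from limma for the 8 tested genes, with the median of all tested genes as a dashed line. The intervals of MAPK3, DUSP4 and DUSP5 lay below 0, those of DUSP6, SPRY2, SPRY4 and SPRED1 above 0, and that of SPRED2 spanned 0.

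The order of the levels shifted accordingly. With 8OH-G miR-483 it ran MAPK3, DUSP6, DUSP4, SPRY2, SPRY4, DUSP5, SPRED1, SPRED2 and SPRY1, and the library ranges overlapped between DUSP6 and DUSP4 and between DUSP5 and SPRED1. With miR-483 it ran MAPK3, DUSP4, DUSP6, DUSP5, SPRY2, SPRED1, SPRED2, SPRY4 and SPRY1, with overlapping ranges between DUSP5 and SPRY2 and along SPRED1, SPRED2 and SPRY4. The coefficient of variation was 2.02% for MAPK3 with 8OH-G miR-483 but 12.3% with miR-483, and 8.02% for DUSP4 with 8OH-G miR-483 but 1.56% with miR-483.

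The genes whose profile over the 6 libraries lay closest to that of SPRY2, by Euclidean distance of centred log2(FPKM + 1), were METAP1D (0.152), PSMD11 (0.194) and CYB5R2 (0.194). PSMD11, a proteasome subunit, was at 44.5 ± 2.52 FPKM with 8OH-G miR-483 and 24.2 ± 2.49 FPKM with miR-483. The closest to DUSP4 were WBP1L (0.0621), YPEL5 (0.0918) and PELI2 (0.0946). WBP1L was at 26.0 ± 2.62 FPKM with 8OH-G miR-483 and 47.6 ± 0.613 FPKM with miR-483.

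The rest of the pathway was read from gene lists, each without the 9 genes. Among 15 tested genes of the cascade itself, from Ras downwards with its scaffolds, 6 rose and 1 fell, with a median log2 difference of 0.03. After median-ratio scaling 5 rose and 3 fell, and after quantile normalization 5 rose and 5 fell. The 1.2-fold threshold left 0 risen and 1 fallen. Without 8OH-G miR-483 replicate 1, 8OH-G miR-483 replicate 3 or miR-483 replicate 2, 4 rose and 2 fell. RRAS, a Ras relative that promotes integrin function and vessel quiescence, fell to 42.8 ± 5.78 FPKM with 8OH-G miR-483, against 88.4 ± 5.79 FPKM with miR-483 (limma adjusted p = 5.07e-05). The rises were smaller: YWHAB, a 14-3-3 protein that binds Raf, was 1.32-fold higher, the MEK scaffold gene LAMTOR3 1.31-fold and NRAS 1.22-fold. Each of these calls was lost with the 1.2-fold threshold (limma adjusted p = 0.187, 0.305 and 0.832).

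Of 13 tested adaptors and Ras exchange factors, 3 rose and 4 fell, with a median of -0.02, while 2 rose and 5 fell under median-ratio scaling and 1 rose and 5 fell under quantile normalization. The 1.2-fold threshold left 1 risen and 1 fallen. Among all tested genes 35.0% were called higher and 20.4% lower (28.2% and 26.4% median-ratio, 27.0% and 28.0% quantile, 17.9% and 9.22% with that threshold). PTPN11, the phosphatase SHP2 that carries receptor signals to Ras, rose to 38.3 ± 2.64 FPKM with 8OH-G miR-483, against 25.3 ± 1.76 FPKM with miR-483. RASGRP3, an exchange factor switched on by diacylglycerol, fell to 4.06 ± 0.698 FPKM with 8OH-G miR-483, against 8.30 ± 0.939 FPKM with miR-483. The FGF receptor adaptors diverged, with FRS2 1.32-fold higher and FRS3 at a ratio of 0.681 (mean FPKM with 8OH-G miR-483 over that with miR-483, here and below), and the FRS2 call was lost after quantile normalization (limma adjusted p = 0.0990). Both FRS2 and FRS3 lost their call with the 1.2-fold threshold (limma adjusted p = 0.523 and 0.381).

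Other brakes on the pathway went both ways, as the 9 genes did. Of 16 tested, 4 rose and 6 fell, with a median of -0.05, and 4 and 7 under either scaling. The 1.2-fold threshold left 3 risen and 1 fallen. Over all tested genes 35.0% were called higher and 20.4% lower (28.2% and 26.4% median-ratio, 27.0% and 28.0% quantile, 17.9% and 9.22% with that threshold). SOCS3, an inhibitor of cytokine receptors that also binds the Ras inactivator RASA1, rose to 20.8 ± 1.68 FPKM with 8OH-G miR-483, against 5.76 ± 1.01 FPKM with miR-483 (limma adjusted p = 6.89e-06). PEBP1, which binds Raf and blocks its access to MEK, rose to 73.7 ± 5.46 FPKM with 8OH-G miR-483, against 46.7 ± 4.03 FPKM with miR-483. RASA2, a Ras GTPase activator, was 1.73-fold higher, while DAB2IP, another, fell to 14.1 ± 0.415 FPKM with 8OH-G miR-483, against 20.3 ± 1.24 FPKM with miR-483.

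Of 12 tested kinases and nuclear factors that ERK activates or controls, 2 rose and 6 fell, with a median log2 difference of -0.21, and 0 rose and 7 fell under either scaling. For all tested genes the shares called higher and lower were 35.0% and 20.4% (28.2% and 26.4% median-ratio, 27.0% and 28.0% quantile). They were 17.9% and 9.22% with the 1.2-fold threshold. The 1.2-fold threshold left 0 risen and 3 fallen. The 2 rises, ELK1 and SRF, named after their values were seen, were also not called without 8OH-G miR-483 replicate 1 or 3 or miR-483 replicate 1 or 2, nor was SRF without 8OH-G miR-483 replicate 2. MKNK2, a kinase that ERK activates and that phosphorylates the cap-binding factor eIF4E, fell to 23.6 ± 1.94 FPKM with 8OH-G miR-483, against 60.1 ± 2.91 FPKM with miR-483 (limma adjusted p = 4.30e-06). The ternary complex factor gene ELK3 fell to 68.5 ± 8.18 FPKM with 8OH-G miR-483, against 117 ± 3.59 FPKM with miR-483. RPS6KA2, an RSK kinase, and ETS2, an ETS factor, had ratios of 0.703 and 0.757. The ETS2 call was lost with the 1.2-fold threshold (limma adjusted p = 0.21).

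Genes known to be induced downstream of ERK, or to tune that induction, rose more often than they fell, as all tested genes did in the deposited values. Of 20 tested, 11 rose and 4 fell, with a median log2 difference of 0.53. Under either scaling 10 rose and 5 fell, and with the 1.2-fold threshold 10 and 2. Over all tested genes, 35.0% were called higher and 20.4% lower as deposited. The shares were 28.2% and 26.4% under median-ratio scaling and 27.0% and 28.0% under quantile normalization. With that threshold they were 17.9% and 9.22%. TRIB1, a pseudokinase, rose to 6.05 ± 0.214 FPKM with 8OH-G miR-483, against 2.08 ± 0.125 FPKM with miR-483. HMGA2, an architectural chromatin protein, was at 48.4 ± 5.84 FPKM with 8OH-G miR-483 and 18.1 ± 0.169 FPKM with miR-483, and the urokinase receptor gene PLAUR at 65.4 ± 2.67 FPKM with 8OH-G miR-483 and 24.3 ± 2.83 FPKM with miR-483. The immediate early factor EGR1 was low, at 1.97 ± 0.207 FPKM with 8OH-G miR-483 and 0.102 ± 0.0549 FPKM with miR-483. It is counted among the 11, but met the minimum of 1 FPKM only through the 8OH-G miR-483 libraries. It was not tested when all 6 libraries had to reach that level or when an 8OH-G miR-483 library was left out. The 4 that fell were EPHA4, JUNB, CIC and UPP1, with log2 differences of -0.69, -0.67, -0.57 and -0.32. The calls for JUNB and UPP1 were lost with the 1.2-fold threshold (limma adjusted p = 0.0654 and 0.665). The UPP1 call was also lost without 8OH-G miR-483 replicate 3 or miR-483 replicate 2 or 3. These 4 were named after their values were seen. So were the ETS factor genes ETV5 and ETV4, which like DUSP6 and the Sprouty genes are textbook ERK targets. ETV5 was at 19.1 ± 1.04 FPKM with 8OH-G miR-483 and 20.0 ± 0.626 FPKM with miR-483 (limma adjusted p = 0.449), and ETV4 had a log2 difference of 0.25 (limma adjusted p = 0.0121), a call lost under either scaling and without miR-483 replicate 3.

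Upstream of the cascade, 0 of 13 tested growth factor receptor genes rose and 5 fell, with a median of -0.02 and the same counts under either scaling. Here and for the growth factors below, 35.0% of all tested genes were called higher and 20.4% lower. The shares were 28.2% and 26.4% under median-ratio scaling and 27.0% and 28.0% under quantile normalization. They were 17.9% and 9.22% with the 1.2-fold threshold. The 1.2-fold threshold left 0 risen and 3 fallen. EGFR and MET, receptors of EGF and HGF, were called higher with a replicate block (limma adjusted p = 0.0359 and 0.0248) and without 8OH-G miR-483 replicate 2 (0.0105 and 0.0490), and FLT4, the VEGFC receptor, without 8OH-G miR-483 replicate 3 (0.0109). Among the 5 that fell, the insulin receptor gene INSR met the minimum only through the miR-483 libraries, at 0.753 ± 0.217 FPKM with 8OH-G miR-483 and 1.13 ± 0.0233 FPKM with miR-483. Its call (limma adjusted p = 0.0437) was lost without 8OH-G miR-483 replicate 2 (0.0830) or 3 (0.137), without the filter (0.0522) and with the fold threshold (0.824). These 4 genes are named after their values were seen. TEK, the angiopoietin receptor TIE2, was at a ratio of 0.279, and NRP2, a coreceptor of VEGF and semaphorins, fell to 42.2 ± 2.94 FPKM with 8OH-G miR-483, against 77.6 ± 4.25 FPKM with miR-483. IGF1R and TIE1 had ratios of 0.680 and 0.718, and the TIE1 call was lost with the 1.2-fold threshold (limma adjusted p = 0.0629). Of 10 tested growth factor genes, 4 rose and 3 fell, and 3 and 3 after quantile normalization. The 1.2-fold threshold left 2 risen and 3 fallen. ANGPT2, a context-dependent antagonist of TEK, rose to 72.9 ± 13.6 FPKM with 8OH-G miR-483, against 18.3 ± 2.91 FPKM with miR-483. VEGFA fell to 8.99 ± 2.60 FPKM with 8OH-G miR-483, against 37.1 ± 4.90 FPKM with miR-483, and IGF2 had a ratio of 0.185. FGF2, at 0.830 ± 0.0386 FPKM with 8OH-G miR-483 and 1.96 ± 0.506 FPKM with miR-483, is counted among the 3 that fell, but met the minimum only through the miR-483 libraries.

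**Figure D4:**
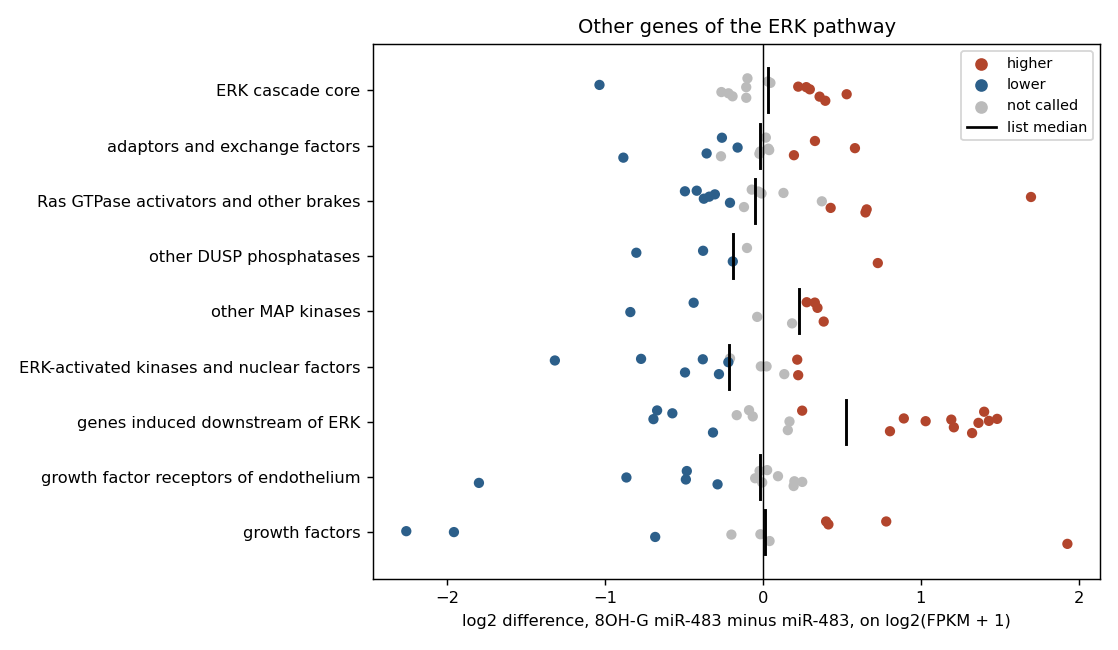
Log2 differences on the log2(FPKM + 1) scale (8OH-G miR-483 minus miR-483) of the tested genes of 9 pathway lists, without the 9 genes described here; each point is a gene, coloured by its call, and black bars are list medians. The list of genes induced downstream of ERK had a median of 0.53 and that of ERK-activated kinases and nuclear factors one of -0.21, and the points of each list lay on both sides of 0.

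Markers were read to check the labelled cell type. All 10 endothelial markers were present, with a summed level of 1296 to 1515 FPKM with 8OH-G miR-483 and 2097 to 2128 FPKM with miR-483. Of the 10, 6 fell and 0 rose, against 20.4% of all tested genes called lower and 35.0% called higher. Of 8 mural and fibroblast markers, 5 had a single row, summing to 6.06 to 6.73 FPKM with 8OH-G miR-483 and 6.64 to 7.09 FPKM with miR-483. The pericyte marker RGS5, whose name is on more than one row, was, at its highest row per library, at 821 to 1015 FPKM with 8OH-G miR-483 and 615 to 837 FPKM with miR-483. Of 6 leukocyte markers 2 had a row, CD68 and LYZ, together 6.49 to 7.79 FPKM with 8OH-G miR-483 and 14.2 to 17.7 FPKM with miR-483. None of the 4 epithelial or 3 erythroid markers had a row. In bulk RNA, fewer cells of a type and less RNA per cell cannot be told apart, and the part of these marker levels in the results was not tested.

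**Figure D5:**
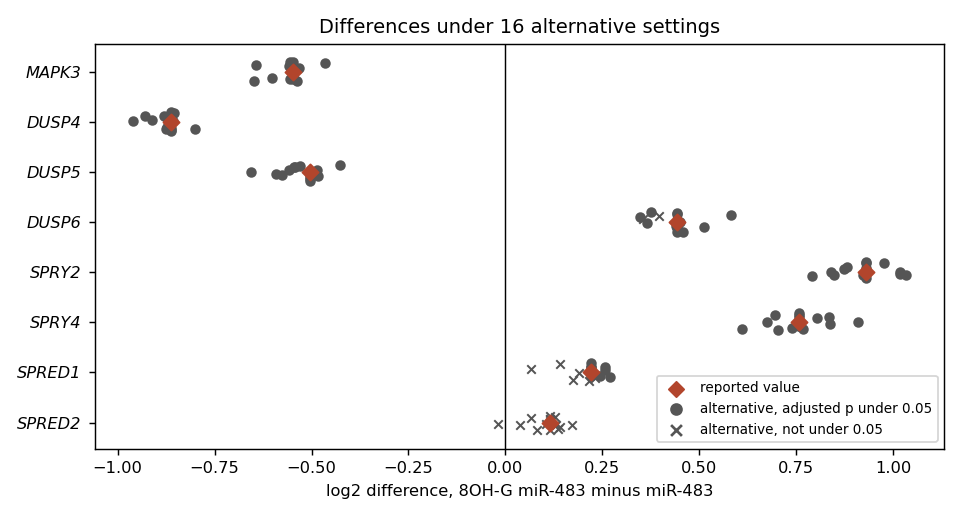
Log2 difference (8OH-G miR-483 minus miR-483) of the 8 tested genes as reported (diamond) and under 16 alternative settings (grey; circles, adjusted p under 0.05; crosses, not under 0.05). MAPK3, DUSP4, DUSP5, SPRY2 and SPRY4 kept their call in all 16, DUSP6 lost it in 3 and SPRED1 in 7.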

How the data were processed

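Per the submitters' processing notes the build was hg19 and the tools were STAR, HTSeq, cutadapt and DESeq2, whose versions and roles are not given there. Every library has its own deposited table of 20792 gene rows with 1 decimal value each. No header or label gives the unit. The deposited values were taken as FPKM made by the authors, because they sum to 1396537 to 1687283 per library, more than TPM or CPM can. Steps worth 1 read were looked for in low values: at the best of 200 depth ratios 21.6% of 1654 low genes lay within 0.01 log2 of one, against a median of 18.1%, so reads were not recovered, depth is unknown and no counting interval is given.

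The 748 names on more than one row (3204 rows) were left out. Genes reaching 1 FPKM in 3 or more libraries were fitted as log2(FPKM + 1) in limma 3.58.1 (R 4.3.3; trend and robust options, 1 term for group), and calls were made at 0.05 after Benjamini-Hochberg adjustment. The scale understates changes of low genes. N-fold values are ratios of mean FPKM. The code was tested on simulated data. Sums, ratios and shares within a library were compared by exact permutation. The 9 genes, the 9 pathway lists and the markers were chosen with earlier results of these data known. One listed gene is not reported here. From each list up to 4 called genes with the smallest adjusted p are named. The 3 tested genes nearest in profile to the member with the widest rise and to that with the widest fall are named too. Promoters come from RefSeq (entries of 7 of the 9 genes were used) and exon overlaps from GENCODE 29. Both are on another build than the files, so none of their coordinates were joined to them. Figures were drawn with matplotlib 3.10.9 in Python 3.11.15. Alternatives covered pseudocounts, filters, scalings, a replicate block, variance settings, repeated names, a fold threshold of 1.2 and each library left out.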

Additional observations from a re-analysis of the deposited data

How the results depend on the processing

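MAPK3, DUSP4, DUSP5, SPRY2 and SPRY4 kept their direction and their call under all 16 alternatives, with log2 differences of -0.65 to -0.47, -0.96 to -0.80, -0.66 to -0.43, 0.79 to 1.03 and 0.61 to 0.91. DUSP6 ran from 0.35 to 0.58 and kept its direction in all 16. It also did not pass when the test asked for more than 1.2-fold (adjusted p = 0.252), and neither did SPRED1. SPRED1 ran from 0.07 to 0.27. SPRED2, not called in any, turned to -0.0195 after quantile normalization, and the cause was not tested. Over all genes 6772 of 12216 were called, and 3311 with the fold threshold, which asks more of each gene by construction. Leaving out each library gave 5695 to 6211 calls over all genes and 5 to 7 among the 9 genes. Of all calls, 63.2% were higher as deposited, against 51.7% with median-ratio scaling and 49.0% with quantile normalization.

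The replicate numbers are shared between the groups, but the labels do not say that they pair the libraries. Deviations from the group means of same-numbered libraries correlated at 0.02, 0.34 and 0.01, and only replicate 2 correlated best with its own number. With the replicate block, 7312 genes and 7 of the 9 were called. Read depth, which would limit SPRY1 most, is unknown.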

Other observations

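Other MAP kinases also went both ways. Of 8 tested, 4 rose and 2 fell with 8OH-G miR-483, with a median log2 difference of 0.23 and the same counts after median-ratio scaling, but 2 and 2 after quantile normalization. The 1.2-fold threshold left 0 risen and 1 fallen. Here and for the DUSP genes below, 35.0% of all tested genes were called higher and 20.4% lower, or 17.9% and 9.22% with that threshold. MAPK11, the p38β gene, fell to 15.6 ± 2.28 FPKM with 8OH-G miR-483, against 28.5 ± 1.79 FPKM with miR-483, while MAPK14, the p38α gene, rose to 20.9 ± 1.63 FPKM with 8OH-G miR-483, against 16.2 ± 0.342 FPKM with miR-483 (SD, n = 3 libraries per group). MAPK7, which encodes the flow-responsive kinase ERK5, was at a ratio of 0.720, and the atypical kinase gene MAPK6 was 1.34-fold higher. MAPK14, MAPK7 and MAPK6 lost their calls with the 1.2-fold threshold (limma adjusted p = 0.366, 0.0675 and 0.155).

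Of 5 further DUSP genes tested, 1 rose and 3 fell, with a median of -0.19, and 1 and 1 with the 1.2-fold threshold. Under either scaling 1 rose and 4 fell, with medians of -0.28 (median-ratio) and -0.34 (quantile), the added gene being DUSP3 (limma adjusted p = 0.0301 and 0.0239), named after its values were seen. The 1 gene counted as risen, DUSP10, which acts on p38 and JNK, met the minimum of 1 FPKM only through the 8OH-G miR-483 libraries, with 1.55 ± 0.269 FPKM with 8OH-G miR-483 and 0.534 ± 0.0412 FPKM with miR-483. It was not tested when all 6 libraries had to reach that level or when an 8OH-G miR-483 library was left out, which left 0 risen. DUSP22 fell to 15.3 ± 1.58 FPKM with 8OH-G miR-483, against 27.4 ± 2.28 FPKM with miR-483. The immediate early phosphatase gene DUSP1 fell to 21.2 ± 1.06 FPKM with 8OH-G miR-483, against 27.9 ± 3.08 FPKM with miR-483. Its call was lost with the 1.2-fold threshold (limma adjusted p = 0.295), as was that of DUSP7. DUSP7, a cytoplasmic ERK phosphatase close to DUSP6, had a ratio of 0.863 (limma adjusted p = 0.0374), and its call was lost without any 8OH-G miR-483 replicate, miR-483 replicate 1 or miR-483 replicate 3 (0.0722 to 0.151).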
